A study of Mus musculus with 8 samples.

Results

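The genes described are 9 Krüppel-like factors, Klf2, Klf3, Klf4, Klf5, Klf6, Klf9, Klf10, Klf13 and Klf15, taken as every non-control probe that the scanner files name for one of them. They have 11 of the 39429 probes on the array, 1 for each gene except Klf13, which has 3. RNA came from lower crypts of the mouse jejunum, cut from fixed sections by laser capture microdissection, and each of 8 samples had its own single-colour Agilent array. For 4 of the samples, food was withheld for 24 h before 80 mg/kg intravenous etoposide, which traps topoisomerase II on cut DNA. For the other 4, the mice had been fed before the same dose. Tissue was taken 3 h after the injection. Every mouse carried the Lgr5EGFP-IRES-CreERT2/+ allele, in which the stem cell gene Lgr5 drives a reporter and an inducible Cre, was 4 to 6 weeks old and was offered moistened food after the drug. The labels give 2 males and 2 females in each group. Fasting cannot be told apart from the refeeding that followed it, and with no array from an undosed mouse the values give no response to etoposide.

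Krüppel-like factors are transcription factors with 3 zinc fingers at their carboxyl end, which bind CACCC boxes and GC-rich sites, and their differing amino ends decide whether they activate or repress. Klf2, Klf4, Klf5, Klf6 and Klf7 act mainly as activators, Klf3, Klf8 and Klf12 recruit the CtBP corepressors, and Klf9, Klf10, Klf11, Klf13 and Klf16 recruit the Sin3 corepressor. In the intestine Klf5 marks dividing crypt cells, while Klf4 restrains division and is needed for colonic goblet cells in the mouse. Klf6 and Klf10 are quickly induced by stimuli, Klf2 is best known in endothelium and T cells, and Klf9 and Klf15 respond to glucocorticoids.

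The shared zinc fingers also bear on what the probes measured, so the 2 probes below are shown, those for Klf5 and Klf13 that code for the same stretch of a finger. The Klf5 probe lies at chr14:99702656-99712388 on the plus strand in mm9, a span of 9733 bases for 60 bases of probe, and thus crosses an intron. The Klf13 probe lies at chr7:71082854-71082913 on the minus strand. In 1 reading frame each, both code for the same run of 13 amino acids, yet over the 40 bases that overlap they match at 29 positions (72.5%), shown in capitals, and share no run longer than 8 bases.
Klf5 probe: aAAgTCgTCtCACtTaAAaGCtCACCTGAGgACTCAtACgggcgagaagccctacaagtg
Klf13 probe: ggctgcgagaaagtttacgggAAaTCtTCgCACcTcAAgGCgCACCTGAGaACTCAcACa
No pair among the 11 probes shared a longer run than 8 bases. The probes were compared only with one another, so whether a probe also binds another member's RNA was not tested.

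The family binds CACCC, so the 250 bases before the transcription start were read for it in RefSeq's GRCm38.p6 table, which matched 7 of the 9 genes. Klf5 and Klf10 had no entry. The motif CACCC, or GGGTG on the other strand, occurred before 5 of the 7, against 52.01% of 32851 windows of the same length over all genes. The GC box GGGCGG, or CCGCCC on the other strand, occurred before 6 of the 7, against 32.74% of those windows, and overlapped CACCC by 1 base in Klf3 and by 1 base in Klf13. Klf3 and Klf6 are printed as the ends of this range, with CACCC and GGGTG in capitals: Klf3, at chr5:64803271-64803520 on the plus strand, holds 5 and Klf6, at chr13:5861239-5861488 on the plus strand, holds 0.
Klf3 upstream: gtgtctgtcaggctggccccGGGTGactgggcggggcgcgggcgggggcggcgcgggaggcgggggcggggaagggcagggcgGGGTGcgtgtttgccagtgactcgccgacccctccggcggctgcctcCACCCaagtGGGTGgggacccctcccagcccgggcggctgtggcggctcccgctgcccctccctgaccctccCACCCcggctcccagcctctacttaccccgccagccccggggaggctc
Klf6 upstream: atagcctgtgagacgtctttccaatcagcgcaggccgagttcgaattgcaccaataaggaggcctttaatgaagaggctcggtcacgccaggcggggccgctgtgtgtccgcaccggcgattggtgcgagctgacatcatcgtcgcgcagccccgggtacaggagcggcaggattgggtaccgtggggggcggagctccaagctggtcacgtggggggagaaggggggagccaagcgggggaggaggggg
A match describes these letters only, and no array here measured binding.

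Well above background were 53.6% to 65.4% of probes on the fasted arrays and 53.2% to 62.7% on the fed arrays. Fasted replicate 3 had the lowest correlations to other arrays, down to 0.823 across probes, and was scanned on a later day than all others. The array labelled female as fed replicate 4 was not well above background for Xist and was for the Y-linked Eif2s3y, at -1.39 on the log2 scale relative to the array's 75th percentile. It thus goes against its sex label. Fed replicate 1, labelled male, was well above background for neither gene, with Eif2s3y at -2.84, so these genes do not settle its sex. Goblet and Paneth cell markers of the crypt were well above background on every array, in 8 of 8 and 6 of 6 genes with a probe, while Lgr5 was on none. Of 12 markers of absorptive enterocytes, which mature above the crypt base, 12 lay higher in fasted crypts, with a median log2 difference of 1.18. The p-values rest on 4 arrays per group, which limits how precisely any difference is known, and cover animal variation only if each array is a separate mouse, as the labels do not state outright.

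Klf6 had the largest difference of the 8 genes tested and lay lower in fasted crypts. Of the 8 genes that could be tested, 6 lay lower and 2, Klf4 and Klf5, higher in fasted crypts, with a median log2 difference of -0.11 against -0.06 over all 19528 genes tested, of which 55.52% lay lower. In limma's test of fasted against fed, 0 of the 8 passed a Benjamini-Hochberg threshold of 0.05, as did 0% of all genes. An unadjusted p under 0.05 was reached by 1 of the 8, Klf6, against 5.95% of all genes and 2.02% on the lower side. In none of the 8 did the 4 fasted arrays lie apart from the 4 fed arrays, which they did in 5.07% of all genes, higher in 2.97% and lower in 2.1%. Levels below are log2 signals relative to each array's 75th percentile, in the order of replicates 1 to 4, and differences are fasted minus fed.

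**Figure D1:**
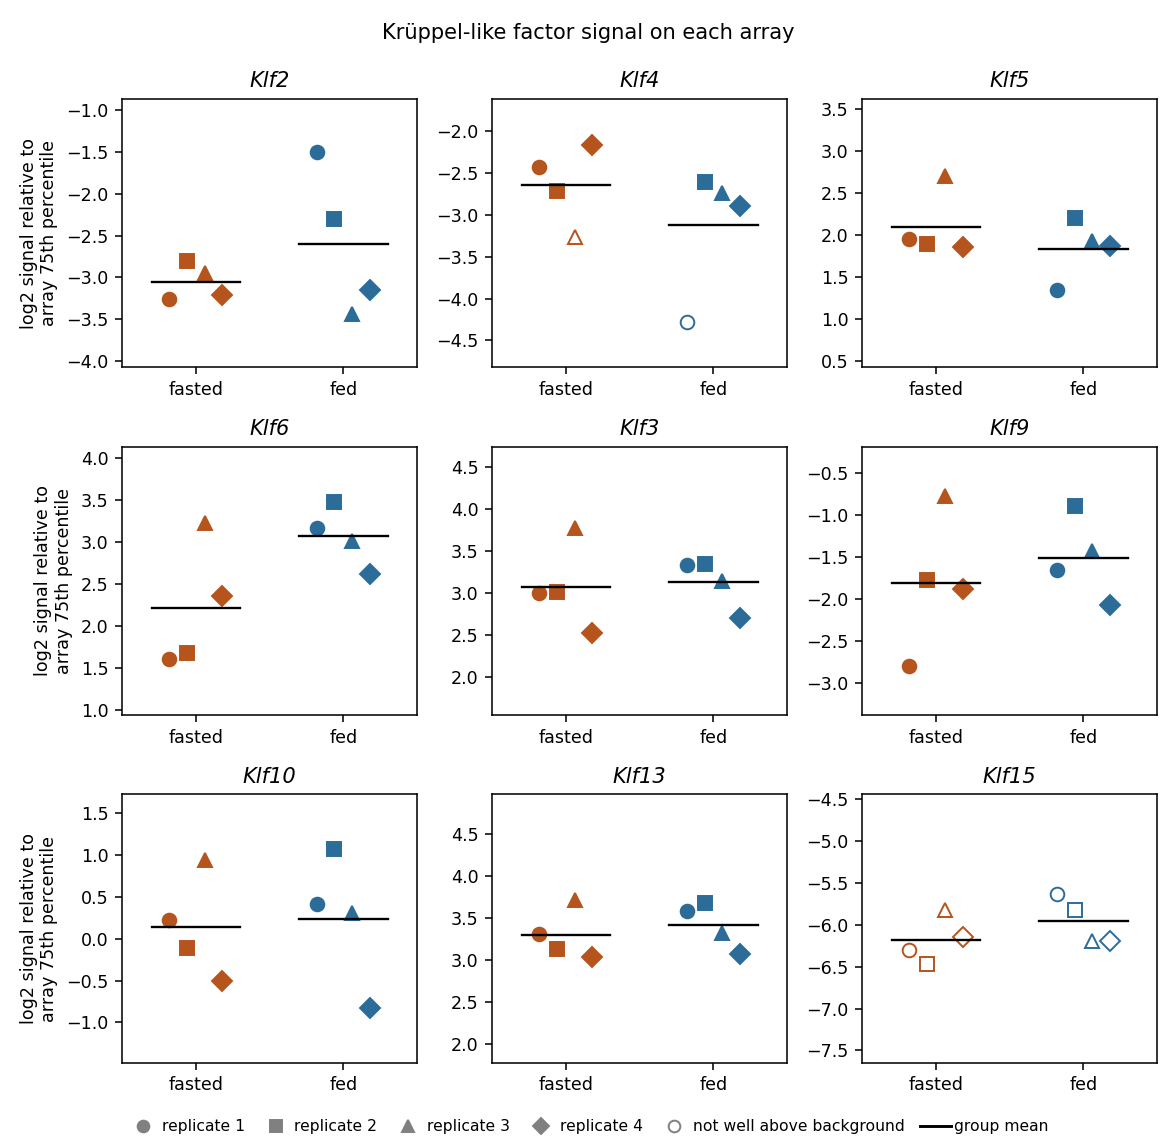
Log2 signal relative to the array's 75th percentile (vertical axis) for each of the 9 genes on the 4 fasted and the 4 fed arrays, with a symbol per replicate, an open symbol where the probe was not well above background, and a bar at the group mean. Klf13 is drawn from its brightest probe. Klf6 lies at 1.61 and 1.69 in fasted replicates 1 and 2 and at 2.62 or more in the fed arrays, and Klf15 is open throughout.

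Klf6, an activator induced by injury and growth signals, was measured at chr13:5869371-5869430 in mm9. Its level was 1.61, 1.69, 3.24 and 2.36 in fasted crypts, against 3.17, 3.48, 3.01 and 2.62 in fed crypts. Fasted replicates 1, 2 and 4 lay below all fed arrays, and fasted replicate 3 lay above 3 of them. The fasted mean was 2.22 ± 0.76 and the fed mean 3.07 ± 0.36 (SD, n = 4 each), a log2 difference of -0.85 (SE 0.37, 95% interval -1.69 to -0.0016), or 1.80-fold lower in fasted crypts. The adjusted p in limma's test was 0.787, and an exact 2-sided permutation test gave p = 0.114, where 4 against 4 can give no less than 0.0286. On the 3 slides that held an array of each group the difference was -1.56 for fasted replicate 1 and fed replicate 1, -1.32 for fasted replicate 2 and fed replicate 3, and -0.26 for fasted replicate 4 and fed replicate 4. It had the same sign on each of them. Fasted replicate 2 is labelled male and fed replicate 3 female, so that pair differs in labelled sex as well as feeding. Fasted replicate 4 and fed replicate 4 are both labelled female, but the transcripts of fed replicate 4 go against that label. In those pairs feeding cannot be told apart from sex, and the same pairs give the within-slide values of the other genes. Leaving out 1 array gave -1.19 without fasted replicate 3 (limma adjusted p = 0.394), the lowest, to -0.62 without fed replicate 2 (adjusted p = 0.792), the highest.

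Immediate early genes, such as the AP-1 and Egr factors, are induced within minutes of a stimulus, as Klf6 can be. In fasted crypts 16 of the 18 tested lay lower. The median log2 difference was -0.40, and 0 passed the threshold. Fosl2, an AP-1 subunit, differed by -0.59, Egr3 by -1.36 and Atf3, a stress-induced factor, by -1.53, with an adjusted p of 0.787 each in limma's test. Atf3 was well above background on 3 fasted and 4 fed arrays. Here and in the lists that follow, most of the genes named were taken for having the smallest p. The mean level of the list was -0.78, -0.66, 0.51 and 0.01 in fasted replicates 1 to 4, against 0.16, 0.54, 0.15 and 0.05 in fed replicates 1 to 4. As with Klf6, fasted replicates 1 and 2 were the lowest of the 8 arrays. Their part in the Klf6 value was not tested.

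Klf2, the endothelial and T cell factor, was dim. It was well above background on all 8 arrays, at -3.25, -2.81, -2.95 and -3.21 in fasted crypts, against -1.50, -2.31, -3.44 and -3.15 in fed crypts. The fed arrays spread more widely than the fasted ones and enclosed them, with fed replicate 1 highest. The log2 difference was -0.45 (SE 0.43, 95% interval -1.43 to 0.53, adjusted p = 0.805 in limma's test). Within slides it turned sign, at -1.75 with fed replicate 1, 0.63 with fed replicate 3 and -0.06 with fed replicate 4. Without fed replicate 1 it was -0.16, and leaving out any other single array gave -0.65 to -0.23.

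Endothelial and leukocyte markers were visible in the captures. Between 8 and 10 of 10 endothelial markers were well above background on the fasted arrays and between 8 and 9 on the fed arrays. Their mean level ran from -0.82 to -0.57 in fasted and from -0.79 to -0.44 in fed crypts. Fed replicate 1, the array highest in Klf2, was highest in this list. It was also highest in the leukocyte, Paneth cell, crypt base stem cell and fibroblast and smooth muscle lists. Fed replicate 2, next highest in Klf2, was at -0.79 in the endothelial list. Of the 9 tested, 4 lay higher and 5 lower in fasted crypts, none past the threshold, around a median log2 difference of -0.14. Tek differed by -0.65, Kdr by -0.39 and Plvap by -0.23, while Tie1 differed by 0.24, Egfl7 by 0.16, Esam by 0.06 and Pecam1, an endothelial adhesion molecule, by 0.05. Tie1, Egfl7 and Esam are named after their values were seen, to show the higher side. Of 10 leukocyte markers, 6 to 8 were well above background on the fasted and 6 to 7 on the fed arrays, while Cd3g was on none. Of the 6 tested, 1 lay higher and 5 lower. Their mean level ran from 0.83 to 1.39 in fasted and from 1.24 to 1.42 in fed crypts, with a median log2 difference of -0.27. Itgam differed by -0.38, Cd4 by -0.38 and Cd68 by -0.29. The Itgam probe read 7.14 in fasted and 7.53 in fed crypts, while Cd4, the next brightest, read 1.01 and 1.39. The mean level of the list thus leans on Itgam, and whether that probe reads leukocyte RNA was not tested. The part of these cells in the Klf2 value was not tested, and in such bulk captures fewer cells of a type cannot be told apart from less RNA per cell.

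Klf4, which restrains division in the gut epithelium, was the only one of the 8 genes tested that was not well above background on every array. Its signal was -2.43, -2.71, -3.27 and -2.17 in fasted crypts, against -4.27, -2.61, -2.74 and -2.90 in fed crypts. The values of fasted replicate 3 and fed replicate 1 were not well above background. The log2 difference was 0.48 (SE 0.49, 95% interval -0.65 to 1.62, adjusted p = 0.811 in limma's test), on the higher side in fasted crypts. It was 1.85, 0.03 and 0.73 within the 3 shared slides, the first against the dim fed replicate 1, and 0.87 with slide as a fixed block. Leaving out 1 array gave 0.07 without fed replicate 1, the lowest, 0.74 without fed replicate 2 and 0.78 without fasted replicate 3, the highest.

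Klf5, the activator of dividing crypt cells, was well above background throughout. Its level was 1.95, 1.90, 2.70 and 1.86 in fasted crypts, against 1.35, 2.20, 1.93 and 1.88 in fed crypts. Apart from fasted replicate 3, which was high, and fed replicate 1, which was low, the arrays lay within 1.86 to 2.20. The log2 difference was 0.26 (SE 0.26, 95% interval -0.34 to 0.87, adjusted p = 0.810 in limma's test), and within the shared slides it was 0.60, -0.04 and -0.02. Leaving out 1 array gave 0.07 without fasted replicate 3, the lowest, to 0.46 without fed replicate 2, the highest.

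Genes that Klf4 and Klf5 are known to control, or that mark the division and maturation they govern, were read beside them. In fasted crypts 5 of the 12 tested lay higher and 7 lower. Their median log2 difference was -0.10, and 0 passed the threshold. Cdkn1a, the p21 inhibitor that Klf4 activates, had a fasted mean of 4.80 ± 0.17 and a fed mean of 5.22 ± 0.26 (SD, n = 4 each), a difference of -0.42 (adjusted p = 0.787 in limma's test). Alpi, the intestinal alkaline phosphatase that Klf4 also activates, differed by 0.64, Lama1, a laminin chain, by -1.33 and Egr1 by -0.47. Lama1 was well above background on 2 fasted and 4 fed arrays. Markers of goblet cells, which Klf4 helps to form, split into 2 higher and 6 lower around a median difference of -0.17. Muc2, the main mucin, differed by -0.20, Spink4 by -0.36 and Agr2 by -0.30, while Zg16 was at 4.83 ± 0.42 in fasted crypts, against 3.73 ± 1.22 in fed ones (SD, n = 4 each). The enterocyte markers, given above, had mean levels of 1.40 to 3.06 in fasted and 0.31 to 1.42 in fed crypts, with Enpep at a difference of 1.92 and Mep1b at 1.73. The part of either cell type in the Klf4 and Klf5 values was not tested.

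**Figure D2:**
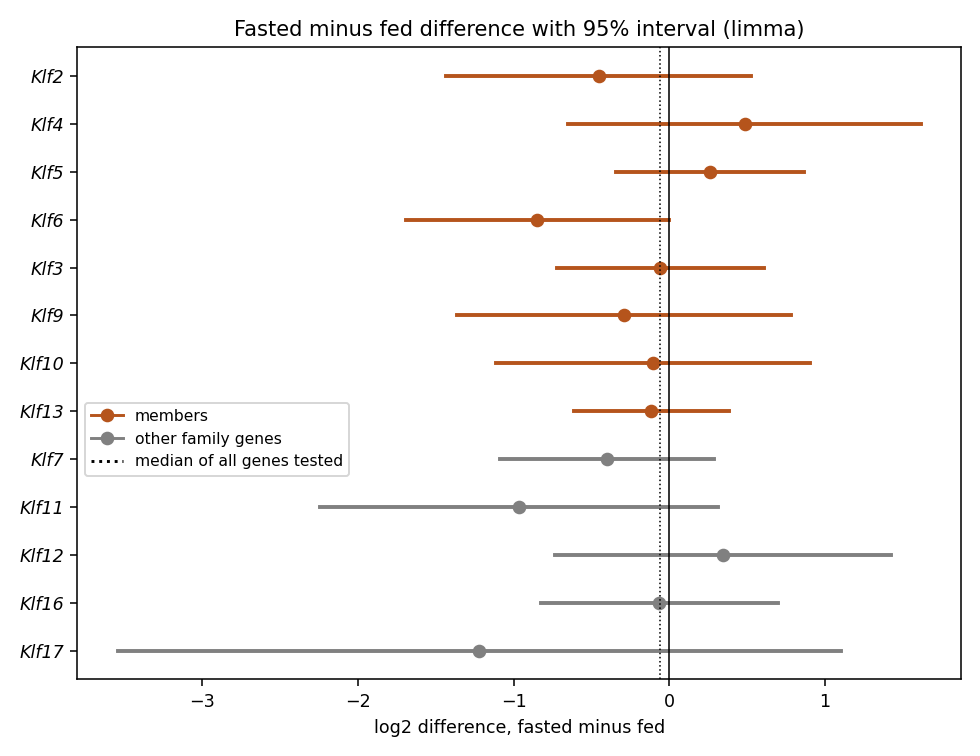
Log2 difference, fasted minus fed (horizontal axis), with its 95% interval from limma for the 8 members tested and, in grey, for the 5 other family genes tested. A solid line marks 0 and a dotted line the median of all genes, -0.06. The interval of Klf6 ends at -0.0016, and every other interval includes 0.

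Klf3, the CtBP-dependent repressor, was 3.00, 3.01, 3.77 and 2.52 in fasted crypts, against 3.34, 3.35, 3.14 and 2.70 in fed crypts. Fasted replicate 3 was the highest and fasted replicate 4 the lowest of all 8 arrays, so the fasted group enclosed the fed one. The log2 difference was -0.06 (SE 0.29, 95% interval -0.72 to 0.61, adjusted p = 0.964 in limma's test). Within the shared slides it was -0.34, -0.14 and -0.18, on the lower side in each, and with slide as a fixed block it was -0.22. Without fasted replicate 3 it was -0.36 and without fasted replicate 4 it was 0.14. With quantile normalization it was 0.02 and so took the other sign.

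Among the Sin3-binding repressors, Klf9, which glucocorticoids induce, was -2.79, -1.77, -0.77 and -1.88 in fasted crypts, against -1.66, -0.89, -1.42 and -2.07 in fed crypts. The fasted arrays held both the lowest and the highest value. Klf10, which TGF beta induces, was 0.22, -0.11, 0.94 and -0.51 in fasted crypts, against 0.41, 1.06, 0.31 and -0.83 in fed crypts. Neither gene shifted beyond the spread within the groups. The log2 difference was -0.29 for Klf9 (SE 0.47, 95% interval -1.36 to 0.78, adjusted p = 0.877 in limma's test) and -0.10 for Klf10 (SE 0.44, 95% interval -1.11 to 0.91, adjusted p = 0.959). Within the shared slides Klf9 differed by -1.14, -0.35 and 0.19 and Klf10 by -0.19, -0.42 and 0.32. Without fasted replicate 3, Klf9 differed by -0.66 and Klf10 by -0.51. Without fed replicate 2, Klf9 differed by 0.0049 and Klf10 by 0.14.

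Klf13 was read by 3 probes, whose differences did not share a sign. The brightest, at chr7:71032482-71032541 in mm9, gave 3.31, 3.13, 3.71 and 3.04 in fasted crypts, against 3.58, 3.68, 3.33 and 3.07 in fed crypts, a log2 difference of -0.12 (SE 0.22, 95% interval -0.61 to 0.38, adjusted p = 0.894 in limma's test). Within the shared slides it was -0.27, -0.20 and -0.03. That probe was designed to a cDNA described as holding a retained intron, and the files list it on the plus strand, opposite to the other Klf13 probes. Over the array 99.5% of 21986 probes with a known gene strand are listed on that strand, and among the members' 9 such probes 8 are. What this probe measures is therefore uncertain. The zinc finger probe printed above gave -0.96, -0.88, 0.81 and -0.36 in fasted crypts, against -0.28, -0.02, -0.64 and -0.49 in fed crypts, a mean difference of 0.01. The probe at chr7:71036675-71069606, which crosses an intron, gave a mean difference of 0.09. All 3 differences were smaller than the spread among the fasted arrays.

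Klf15, which in mouse liver and muscle takes part in fasting metabolism, was not well above background on any of the 8 arrays at chr6:90425144-90425203 in mm9, and was not tested. Its signal ran from -6.46 to -5.83 on the fasted and from -6.20 to -5.63 on the fed arrays.

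**Figure D3:**
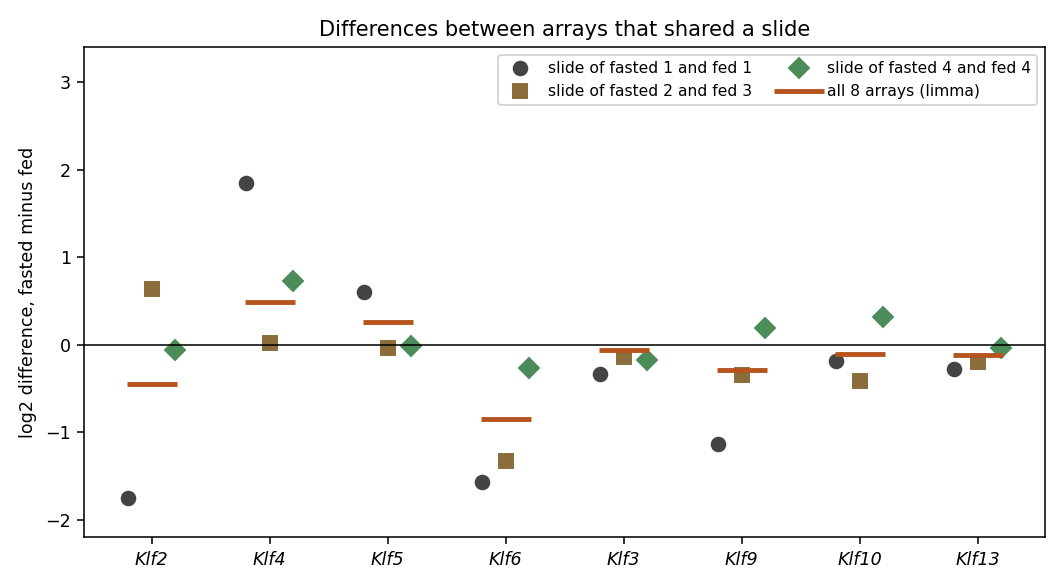
Log2 difference, fasted minus fed (vertical axis), for each of the 8 members tested, as 1 point for each of the 3 slides that held an array of both groups and a bar for the limma estimate from all 8 arrays. Klf6, Klf3 and Klf13 lie below 0 and Klf4 above 0 on all 3 slides, Klf6 at -1.56, -1.32 and -0.26, while Klf2, Klf5, Klf9 and Klf10 lie on both sides of 0. The slide of fasted replicate 2 and fed replicate 3 pairs a male with a female label. The transcripts of fed replicate 4, paired with fasted replicate 4, go against its female label.

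The feeding difference was next compared between arrays labelled male and female, since each group held 2 of each. In Klf6 it was -1.68 between the arrays labelled male and -0.02 between those labelled female, a difference between the labelled sexes of -1.66 (SE 0.48). In limma's interaction test this had an unadjusted p of 0.0103 and an adjusted p of 0.758, so it did not pass. An unadjusted p under 0.05 was reached by 1 of the 8 genes, against 3.2% of 19488 genes, and 0 of the 8 passed after adjustment, as did 0% of all genes. The interaction was negative in 7 of the 8, against 48.1% of all genes. Klf2 differed by -1.12 in arrays labelled male and 0.22 in those labelled female, Klf9 by -1.01 and 0.43, and Klf10 by -0.68 and 0.48. These 4 genes share the same arrays. The 2 fasted arrays labelled female include fasted replicate 3, which was the highest fasted array in 6 of the 8 genes. Klf6, Klf9 and Klf10 were among those 6, but Klf2 was not. Without fasted replicate 3 the interaction was -1.21 in Klf2, -0.88 in Klf9 and -0.43 in Klf10. With all arrays it was -1.34, -1.43 and -1.16. The part of fasted replicate 3 in these values was not tested.

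Without fed replicate 4, whose transcripts go against its sex label, the Klf6 interaction was -1.46 (unadjusted p = 0.0435, adjusted p = 0.977 in limma's test). Without fasted replicate 3 it was -1.22 (adjusted p = 1.00). Without fasted replicate 4 it was -2.10 and passed (adjusted p = 0.0239), but in that fit 11.4% of all genes passed, and fasted replicate 3 then stands alone for fasted females, with its variance borrowed from the other arrays.

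**Figure D4:**
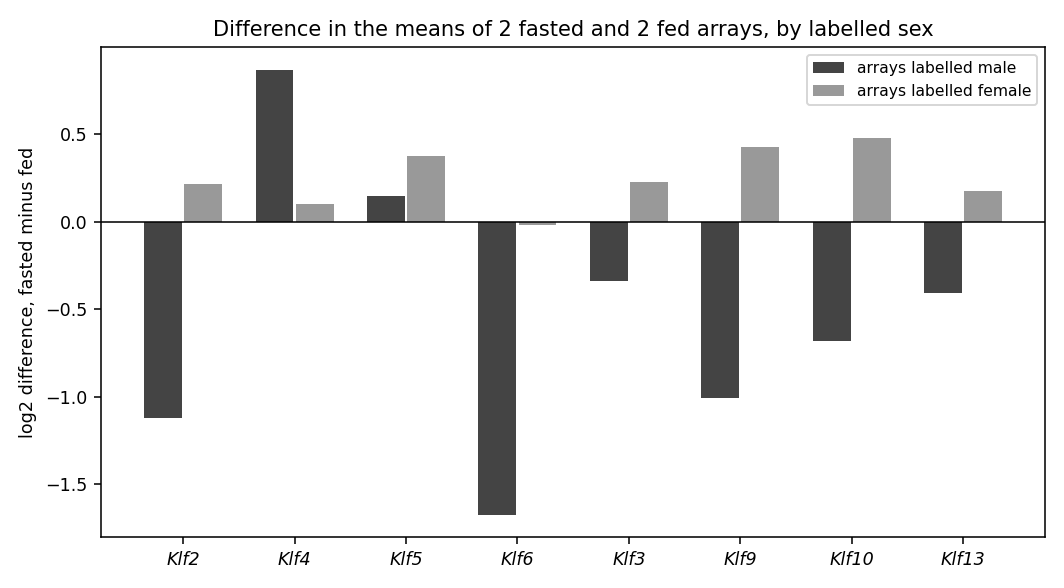
Difference between the mean of 2 fasted and the mean of 2 fed arrays (vertical axis, log2), for arrays labelled male and arrays labelled female, in the 8 members tested. Klf6 stands at -1.68 in arrays labelled male and -0.02 in those labelled female. With 2 arrays per mean no error is drawn.

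The other 8 genes of the family were read from 9 probes. Klf1, Klf8 and Klf14 were not well above background on any array. Of the 5 tested, 4 lay lower in fasted crypts, with a median log2 difference of -0.40, and 0 passed. Klf11, a Sin3-binding repressor, differed by -0.97 (SE 0.56), Klf7, an activator close to Klf6, by -0.40 (SE 0.30), and Klf17 by -1.22 (SE 1.01), with an adjusted p of at least 0.787 each in limma's test. The Klf17 probe tested was well above background on 3 fasted and 3 fed arrays. Fasted replicate 3, at -6.00 and not above background, is the lowest value in the Klf17 difference. The other Klf17 probe stayed near background throughout and had no value for fasted replicate 3. Its mean difference was -0.01, which at that signal cannot decide whether Klf17 differed. Klf7 was 2.65, 2.30, 3.70 and 2.99 in fasted crypts, against 3.12, 3.73, 3.34 and 3.05 in fed crypts, and as in Klf6 fasted replicates 1 and 2 were the lowest of the 8 arrays and fasted replicate 3 lay among the highest. Of the related Sp factors 6 were tested, 2 higher and 4 lower, with a median of -0.23. Sp4 differed by -0.53, Sp6 by -0.78 and Sp8 by -0.39.

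Corepressors and enzymes that act with the family lay on either side of 0, 8 of 12 higher and 4 lower. The median log2 difference was 0.13, and 0 passed the threshold. Sin3b, a scaffold of the Sin3 complex, had a fasted mean of 1.84 ± 0.24 and a fed mean of 1.48 ± 0.10 (SD, n = 4 each) and was the 1 gene of the list in which the groups did not overlap, against 2.97% of all genes in that direction. Its difference of 0.35 did not pass (adjusted p = 0.787 in limma's test). Mapk7, the kinase upstream of Klf2 and Klf4 in endothelium, differed by 0.50 and Hdac3, a histone deacetylase, by 0.45. Of 12 glucocorticoid-responsive genes, read for Klf9, 7 lay higher and 5 lower (median 0.04). Zbtb16 differed by -1.58, Nr3c1, the glucocorticoid receptor, by 0.34 and Dusp1, a phosphatase, by -0.58. Of 8 TGF beta and Smad genes, read for Klf10, 3 lay higher and 5 lower, with a median of -0.10. Tgfbr1 differed by 0.63 and Tgfbr2 by -0.38. Smad4 had no value on fasted replicate 2 and fed replicate 3, and its means were 2.22 ± 0.27 in fasted crypts, against 2.31 ± 0.62 in fed ones (SD, n = 3 each). Its fitted difference of -0.32 is adjusted for labelled sex, which those 6 arrays do not balance, and is larger than the gap between the means.

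The remaining marker lists also had 0 genes past the threshold. In Paneth cells 6 of 6 markers lay lower in fasted crypts (median -0.46), Pla2g2a at -0.80, Itln1 at -0.34 and Defa3 at -0.49. Crypt base stem cell markers, 4 higher and 3 lower, had a median of 0.07, with Olfm4 at -1.11, Ascl2 at 0.59 and Smoc2 at 0.42. Fibroblast and smooth muscle markers, 3 higher and 6 lower, had a median of -0.09, with Myh11 at 0.68 and Col1a2 at -0.72. Pdgfra was well above background on 4 fasted arrays and on no fed array, so only the fasted group kept it in the test. On these arrays its group means differed by at least 1.60-fold, higher in fasted crypts, a figure that carries no sampling error. That bound on the means was taken against the higher of its dim signal and the lowest signal well above background on each array. The 2 groups overlapped, and the difference did not pass (adjusted p = 0.787 in limma's test).

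**Figure D5:**
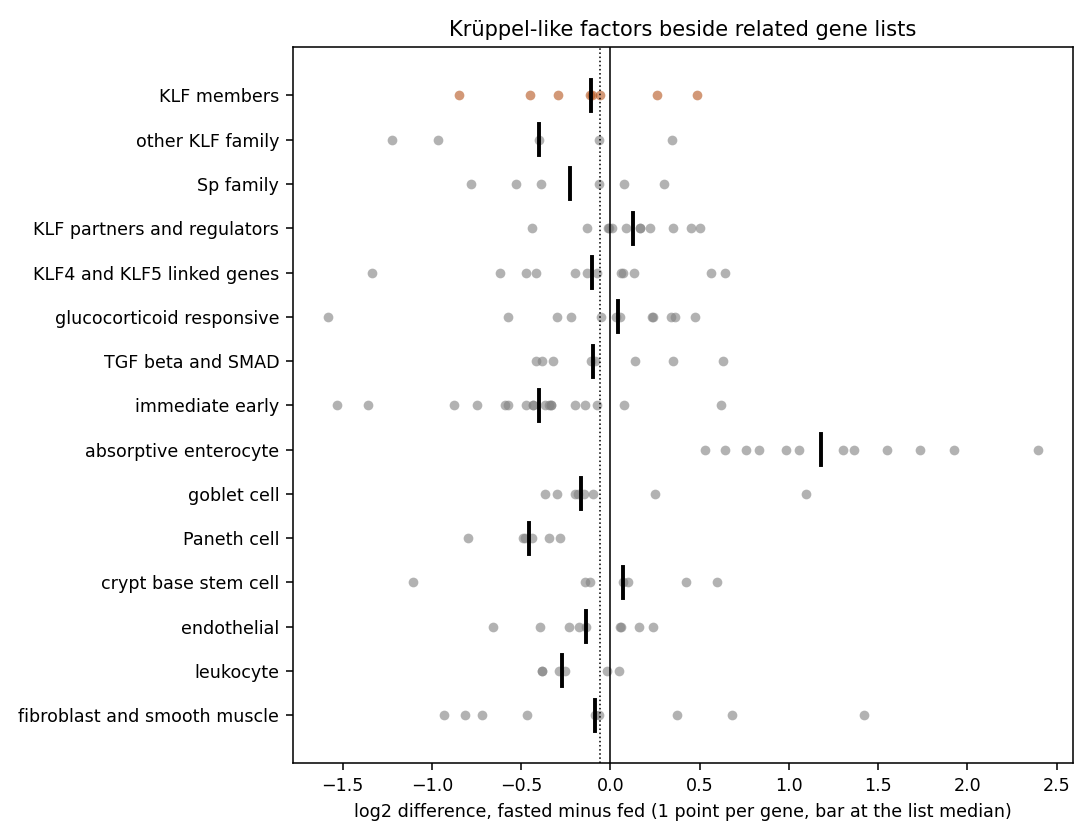
Log2 difference, fasted minus fed (horizontal axis), of each gene tested in the Krüppel-like factor list and in 14 lists of related genes and cell type markers, with a bar at each list's median and a dotted line at the median of all genes. The bar lies at -0.11 for the Krüppel-like factors, at -0.40 for immediate early genes and at 1.18 for absorptive enterocyte markers.

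For the 3 genes with the largest differences, the genes with the nearest profile over the 8 arrays were found by root mean square distance after centring each gene on its own mean, out of 19347 others. Klf6, whose own values deviated by 0.66 log2 units, lay nearest to Dusp5, a nuclear phosphatase of ERK induced by growth signals, at 0.15, to Cysrt1 at 0.15 and to Tnfrsf1b, a receptor of tumour necrosis factor, at 0.18. Their log2 differences of -0.79, -0.81 and -0.75 follow from that choice, since the distance was taken over the same arrays. Klf4 lay nearest to Zfp598, Invs and Bcl2l15 at 0.22, 0.23 and 0.26, and Klf2 to Tfcp2l1, Vps39 and Shmt2 at 0.26, 0.28 and 0.28. These distances describe 8 arrays that share slides and signal strength.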

How the data were processed

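The authors deposited scanner intensities for each array, extracted with Agilent Feature Extraction 11.5.1.1 as a background-subtracted processed signal, per the file headers, beside a flag per spot for being well above background, and a matrix of log2 values whose scale and centring are not given in the sources used here. That matrix followed the processed signal in rank (Spearman correlation of at least 0.9999 across probes) and its column medians ran from 7.73 to 8.33. Probe coordinates come from the files and are in mm9.

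Control and outlier spots were left out and spots of a probe averaged. Tests used log2 processed signals after the 75th percentile of the array was subtracted. Probes well above background on 4 or more of the 8 arrays were kept and each gene was taken from its brightest one, giving 19528 genes, 8 of the 9 members among them. Of 39429 probes, 27649 were named through a RefSeq table and 11780 kept the files' name. limma 3.58.1 in R 4.3.3 fitted group and labelled sex, with a mean trend, Benjamini-Hochberg adjustment over all genes and 95% intervals, and was tested on simulated data. A second fit added the interaction.

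The members and gene lists were chosen with earlier results of these data known. All members were named, with up to 3 genes of smallest p in each list (1 such gene is not reported here), Cdkn1a, Alpi, Muc2 and Pecam1, and the 3 nearest profiles of the 3 members with the largest differences. Lists were described by counts and medians, with no test. Replicate numbers did not pair the arrays: deviations from the group means correlated at 0.37, -0.47, -0.45 and 0.61 for numbers 1 to 4. The 3 pairs that shared a slide correlated at 0.37, 0.54 and 0.61, and limma's estimated correlation within slides was 0.70. Pairs that shared neither slide nor number ran from -0.51, fasted replicate 3 with fed replicate 4, to 0.50, fasted replicate 2 with fed replicate 4. Scaling, background correction (normexp, offset 50), filter, probe rule, blocks (slide or replicate number), sex term, variance model and threshold (0.1) were varied, the deposited matrix was fitted too, and every array was left out in turn.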

Additional observations from a re-analysis of the deposited data

Results flagged for a closer look

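Fasted replicate 3 stood apart from the other fasted arrays in Klf5, at 2.70 on the log2 scale relative to the array's 75th percentile, against 1.86 to 1.95 in the other 3. Its gap to the nearest was 0.893 of the group's range, which is above Dixon's 95% critical value for 4 arrays. Chance alone takes about 1 in 20 groups past that value.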

How the results depend on the processing

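No gene passed the adjusted threshold of 0.05 between fasted and fed crypts in any of 23 alternatives, 1 of which set it at 0.1, where the unadjusted p was under 0.05 for 479 to 3074 genes and the smallest adjusted p was 0.114. Of the 8 members none passed in any of 22 alternatives, the smallest adjusted p being 0.233, for Klf6 with slide as a random block. Klf6 lay lower in fasted crypts in all 22, from -1.34 to -0.62, and Klf2 and Klf13 lay lower and Klf4 higher in each alternative run for them. Some of these values lay close to 0. Klf4 was 0.07 with normexp and quantile normalization, against 0.48 in the main fit, and Klf13 was -0.0044 with the mean of its probes. Klf3, Klf5, Klf9 and Klf10 took the opposite sign in 12 of their alternatives. Klf3 was 0.025 with quantile normalization, 0.043 with normexp and quantile normalization, and 0.00088, 0.14 and 0.0014 without fasted replicate 1, fasted replicate 4 and fed replicate 2. Klf10 was 0.08, 0.07, 0.14 and 0.0081 without fasted replicate 2, fasted replicate 4, fed replicate 2 and fed replicate 3. Klf9 was 0.056 and 0.0049 without fasted replicate 1 and fed replicate 2, and Klf5 was -0.0010 with array weights. The cause was not tested. The lowest values on leaving out 1 array were those without fasted replicate 3: -0.36 for Klf3, -0.66 for Klf9 and -0.51 for Klf10. Leaving out 1 array gave 3 to 6 members lower in fasted crypts, the 3 without fed replicate 2, and a member median of -0.44 to 0.02. Leaving out fasted replicate 3 and fed replicate 4 together, chosen after seeing the data, gave a median of -0.55 with 6 members lower. For the interaction with labelled sex, leaving out 1 array gave 0 to 2229 genes, the most without fasted replicate 4. Under the replicate block, which replaces labelled sex, the member median was -0.11, Klf6 was -0.85 (adjusted p = 0.752) and 0 genes passed, so no call changed. Slide as a fixed block also replaced labelled sex. Fasted replicate 3 and fed replicate 2 were alone on their slides, so their values did not enter its differences. In that fit the member median was -0.19, Klf6 was -1.05 (adjusted p = 0.237 in limma's test), Klf4 0.87, Klf3 -0.22 and Klf9 -0.43. With slide as a random block, which kept labelled sex, the median was -0.16, Klf4 0.81 and Klf3 -0.17. Neither slide fit changed a call. Without a filter Klf15 entered the fit from signals not well above background, and its difference is not read. The number of arrays and, for Klf4, a signal near the background limit what can be seen.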
